A study of Mus musculus with 28 samples.

Results

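The gene Nfe2l2, which encodes the transcription factor NRF2, and 7 genes that are widely used as readouts of NRF2 activity (Hmox1, Nqo1, Gclc, Gclm, Srxn1, Txnrd1 and G6pdx) were followed across O9-1 cells kept at 2 oxygen levels. O9-1 is a line of mouse cranial neural crest cells, the embryonic population that forms much of the face and skull. The genes were chosen by symbol, and all 8 were found among the 54429 genes of the deposited count table and passed the filter on low counts in every comparison. From poly(A) RNA, 28 libraries were sequenced, with 4 libraries in each of 4 groups at 21% O2 and 3 libraries in each of 4 groups at 0.5% O2. The labels number the replicates but do not say whether they are separate cultures, so p-values measure the spread between these libraries, which may be technical.

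NRF2 binds DNA together with a small MAF protein at antioxidant response elements. In unstressed cells the adaptor KEAP1 and the ubiquitin ligase built on CUL3 mark NRF2 for degradation, and electrophiles or oxidants that modify KEAP1 let NRF2 accumulate, so that NRF2 activity is set largely at the level of the protein and not of its transcript. BACH1 competes for the same sites and is released by haem. The products of the target genes break down haem (HMOX1), reduce quinones (NQO1), make glutathione (GCLC and GCLM), maintain thioredoxin and peroxiredoxins (TXNRD1 and SRXN1) and supply NADPH (G6PDX). Hmox1 is also known as a gene that responds to low oxygen, haem and other stresses through further factors.

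All groups were the same cell line, and at each oxygen level they differed in medium. Proliferating cultures were kept in STO-conditioned DMEM with 15% fetal calf serum, 55 µM beta-mercaptoethanol, 25 ng/ml bFGF and 5 ng/ml LIF. Chondrocyte cultures spent 3 days in osteoblast medium and then 7 days as micromasses on matrigel in alpha-MEM with 5% serum, insulin, transferrin and selenium, 0.1 µM dexamethasone, 10 ng/ml TGF-beta3 and 50 ng/ml BMP-2. Osteoblast cultures spent 10 days in alpha-MEM with 10% serum, 10 mM beta-glycerophosphate, 0.1 µM dexamethasone and 100 ng/ml BMP-2. Smooth muscle cultures spent 3 days in DMEM with 10% serum. Only the labels of the proliferating groups list beta-mercaptoethanol, a thiol reductant, so in every comparison with proliferating cells its removal, the change of medium and the change of cell state cannot be told apart.

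Library totals ran from about 19869300 to about 64693300 counts. Levels are counts per 1000000 (CPM) after TMM scaling, a trimmed mean that sets the typical gene equal between libraries. The summed level of 11 genes known to respond to low oxygen was 656 to 3363 CPM in the normoxic libraries and 7650 to 38685 CPM in the hypoxic ones. Neural crest markers summed to 2263 to 2461 CPM in normoxic proliferating cells, although Sox10 and Foxd3 had no count there, and chondrocyte markers rose from 102 to 147 CPM there to 7195 to 14189 CPM in normoxic chondrocyte cultures. Osteoblast markers were highest in the chondrocyte cultures. Of all groups, the hypoxic smooth muscle libraries stood furthest apart: mitochondrial ribosomal RNA took 11.6% to 13.3% of their counts against at most 0.0889% in the other 25 libraries, and their smooth muscle markers summed to 92.6 to 116 CPM, near the 92.3 to 99.2 CPM of normoxic proliferating cells and far from the 3697 to 4137 CPM of normoxic smooth muscle cultures. Their neural crest markers summed to 2843 to 3550 CPM, against 827 to 1023 CPM in normoxic smooth muscle cultures. Member results against that group's normoxic partner are therefore given under 2 scalings below, and values of other pathway genes in it under TMM only. Replicate 4 of the normoxic osteoblast group also differed from its 3 partners, and several member values that move with it are given without it too.

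The 8 genes lie on 6 chromosomes of the mouse genome (GENCODE annotation, build GRCm38, the GRC name for mm10): Nfe2l2 at chr2:75675513-75704641 and Srxn1 at chr2:152105516-152111376, Gclm at chr3:122245557-122270732, Hmox1 at chr8:75093621-75100589 and Nqo1 at chr8:107388225-107403206, Gclc at chr9:77754535-77794485, Txnrd1 at chr10:82833951-82897712, and G6pdx at chrX:74409483-74429194. Exons of Gclm overlap those of a gene on the opposite strand over 296 bases and those of a pseudogene on the same strand over 244 bases, and exons of G6pdx overlap those of Ikbkg on the opposite strand over 418 bases. Whether strand was used in counting is not given in the sources used here, so reads from these stretches cannot be assigned with certainty.

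The core of the antioxidant response element was searched as TGANNNNGC on both strands in windows of 300 bases around annotated starts (RefSeq, GRCm38.p6). Of the members, 6 matched that table (all but Hmox1 and Gclc), with 8 promoters in all. The core was found in 6 of these 8 promoters (75%), against 41.3% of all 32851 promoters. The stricter form TGACNNNGC (1 more fixed base), whose matches are contained in those of the core, was in 5 of 8 (62.5%) against 12.4%. Txnrd1 alone held 3 of the 8 promoters. The genes were chosen as known NRF2 readouts, so these shares describe them and test nothing. Matches upstream of the start are shown for Srxn1 (2 of 3), Gclm, Txnrd1 (1 of 2) and G6pdx. These 4 genes were taken as the members that fell in every chondrocyte, osteoblast and smooth muscle group against proliferating cells at the same oxygen level. That of Nfe2l2 is shown because the factor's own gene carries one. The capitals mark the match, and GCNNNNTCA is the core read on the other strand.
Srxn1, chr2:152105469-152105497, plus strand: aaattcacccTGAGTCAGCggccgggcgc
Srxn1, chr2:152105356-152105384, plus strand: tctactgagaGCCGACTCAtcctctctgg
Gclm, chr3:122245413-122245441, plus strand: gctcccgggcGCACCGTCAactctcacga
Txnrd1, chr10:82859104-82859132, plus strand: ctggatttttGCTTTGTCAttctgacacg
G6pdx, chrX:74428919-74428947, minus strand: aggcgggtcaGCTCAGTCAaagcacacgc
Nfe2l2, chr2:75704885-75704913, minus strand: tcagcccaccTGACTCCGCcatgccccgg
Srxn1 held 4 matches in its window, the most among the members, of which those shown begin 45 and 158 bases before the start. Its only match to the stricter form lies after the start and is not shown. The Nqo1 window held none, which says only that these letters are absent from that window. A match describes the sequence and not binding.

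The members did not move as a block. Under TMM scaling Hmox1 and Gclc spanned the widest range of group means. Hmox1 spanned 11.8-fold, from 21.1 CPM in normoxic proliferating cells to 249.5 CPM in hypoxic osteoblast cultures. Gclc spanned 10.5-fold, from 14.7 CPM in normoxic smooth muscle to 154 CPM in hypoxic osteoblast cultures. Srxn1 (6.68-fold), Txnrd1 (6.31-fold) and G6pdx (5.39-fold) were highest in proliferating cells, and Nqo1 (3.97-fold), Gclm (2.77-fold) and Nfe2l2 (2.50-fold) varied least. Srxn1, Nqo1 and Gclm were lowest in hypoxic smooth muscle cultures, so these spans and their order depend on the scaling. Under library size scaling Srxn1 was 120 to 150 CPM in normoxic proliferating libraries and 7.19 to 11.3 CPM in hypoxic smooth muscle libraries. Per kilobase of exon, the scale on which genes can be set beside each other, Hmox1 was the lowest member in normoxic proliferating cells at 12.1 CPM per kb, next to Gclm at 13.7 and Gclc at 14.9, and the highest in hypoxic osteoblast cultures at 142 CPM per kb, ahead of Gclc at 40.9. G6pdx at 46.2 and Txnrd1 at 42.9 CPM per kb led in normoxic proliferating cells.

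**Figure D1:**
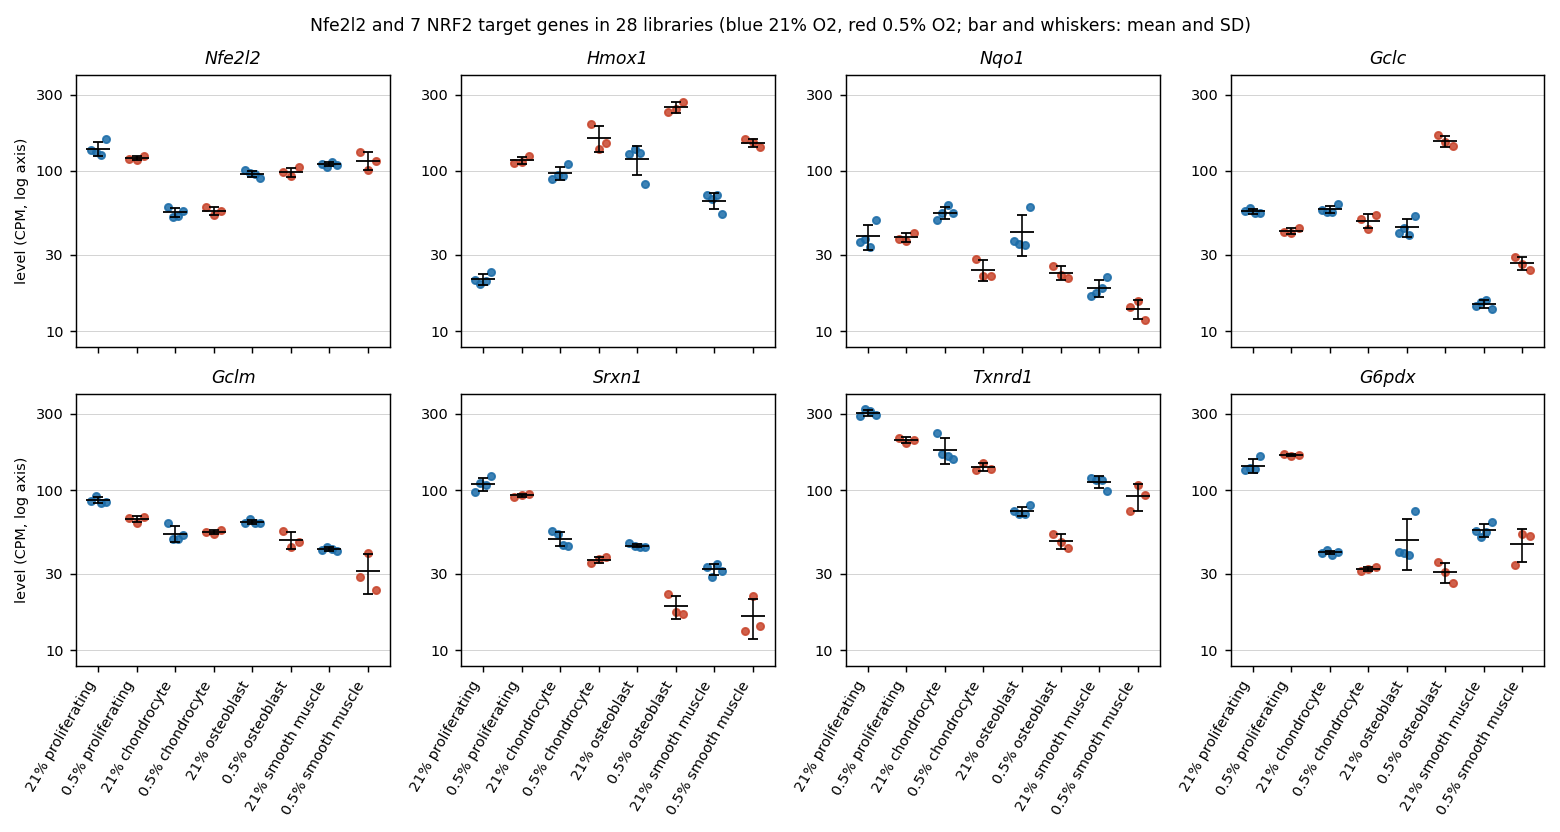
Level of each gene (CPM on a log axis) in every library of the 8 groups, with blue points for 21% O2, red points for 0.5% O2, and the mean and SD as bar and whiskers. Hmox1 has its lowest points in normoxic proliferating cells (19.8 to 23.4 CPM), and Gclc its highest in hypoxic osteoblast cultures (143 to 167 CPM). At each oxygen level Srxn1 and Txnrd1 step down from proliferating to the other cultures.

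Low oxygen changed the members in different directions. Against the normoxic group of the same culture type, 7 of 8 members were called in proliferating cells (2 higher, 5 lower), where 65.4% of all 14156 genes tested were called at a Benjamini-Hochberg adjusted p under 0.05 in edgeR's quasi-likelihood test. In chondrocyte cultures 5 members were called (1 higher, 4 lower) beside 22.2% of all genes, in osteoblast cultures 6 (2 higher, 4 lower) beside 54.3%, and in smooth muscle cultures 4 (3 higher, 1 lower) beside 75.6%. Of all genes, 33.1% were higher and 32.3% lower in proliferating cells, 10.4% and 11.8% in chondrocyte, 27% and 27.3% in osteoblast, and 35.4% and 40.2% in smooth muscle cultures. Hypoxic and normoxic libraries did not overlap for 6 of 8 members in proliferating cells (65% of all genes), 6 in chondrocyte (32.2%), 7 in osteoblast (58%) and 5 in smooth muscle cultures (75.4%). With so many genes called, a call alone sets no member apart, and the direction and size carry the description. The median member log2 fold change was -0.22, -0.31, -0.49 and -0.15 in these 4 comparisons, and the median of all genes was 0.01, -0.01, -0.03 and -0.12.

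Nfe2l2 itself moved little with oxygen. In proliferating cells it fell from 138 ± 13.7 CPM (SD, n = 4) to 120.0 ± 3.50 CPM (SD, n = 3), a log2 fold change of -0.20 (SE 0.07, adjusted p = 0.0199). Each of the 3 hypoxic libraries lay below the 4 normoxic ones, but the call was lost without hypoxic replicate 1 (adjusted p = 0.0624) or hypoxic replicate 2 (adjusted p = 0.0768). In chondrocyte cultures the level was 55.1 ± 3.64 against 56.6 ± 3.26 CPM and in osteoblast cultures 95.9 ± 4.18 against 98.7 ± 6.38 CPM, with overlapping libraries and no call. The Nfe2l2 log2 fold change in smooth muscle cultures was 0.22 (adjusted p = 0.0361) with overlapping libraries, and it turned to -1.15 under scaling by library size alone. That call was also lost in 6 of the 7 fits that left out a library (adjusted p up to 0.266).

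Hmox1, the inducible haem oxygenase, was the member that rose with low oxygen in every culture type under TMM scaling. In proliferating cells its level was 20.8, 19.8, 20.5 and 23.4 CPM at 21% O2 and 112, 114 and 124 CPM at 0.5% O2. The 2 ranges were far apart, and the rise was 5.51-fold (log2 2.46, SE 0.07, adjusted p = 3.29e-12), among the top 2.29% of all tested genes. In chondrocyte cultures the levels were 88.8, 95.1, 93.1 and 111 CPM against 196, 138 and 150.3 CPM, a 1.64-fold rise (log2 0.72, SE 0.12, adjusted p = 0.00184) with no overlap. In osteoblast cultures they were 127, 137, 129.7 and 82.7 CPM against 234, 245 and 269 CPM, a 2.10-fold rise (log2 1.07, SE 0.16, adjusted p = 0.000461). Normoxic osteoblast replicate 4 was the low library at 82.7 CPM, and without it the log2 fold change was 0.93 (adjusted p = 7.11e-08). In smooth muscle cultures the levels were 70.4, 66.6, 70.5 and 54.1 CPM against 158, 151 and 141 CPM, a log2 fold change of 1.34 (SE 0.10, adjusted p = 8.51e-09) that became -0.03 (adjusted p = 0.775) when libraries were scaled by size alone.

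The size of the Hmox1 response depended on the culture type. Set against the response of proliferating cells, it was smaller by 1.73 on the log2 scale in chondrocyte cultures (interaction, SE 0.15, adjusted p = 1.35e-07), by 1.34 in osteoblast cultures (SE 0.18, adjusted p = 1.58e-05) and by 1.08 in smooth muscle cultures (SE 0.12, adjusted p = 8.69e-08). Library size scaling gave -1.74, -1.46 and -2.42 for these 3 terms, so their order depends on the scaling. Without normoxic osteoblast replicate 4 the osteoblast term was -1.48 under TMM scaling. The 3 terms share the proliferating libraries. The interactions called 4 members in chondrocyte (1 higher, 3 lower), 6 in osteoblast (2 higher, 4 lower) and 5 in smooth muscle cultures (3 higher, 2 lower), beside 43.5%, 54.2% and 70.4% of all genes. Of all genes, 21.6% were called higher and 21.9% lower in the first, 28.9% and 25.3% in the second, and 34.9% and 35.5% in the third. In the normoxic groups Hmox1 started from 21.1 CPM in proliferating cells and from 65.4 to 119 CPM in the differentiated ones, so the starting levels differed 3.04-fold or more (all 3 normoxic differentiated groups against proliferating cells, below).

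Nqo1, the quinone reductase often taken as the standard NRF2 readout, did not rise with low oxygen in any culture type. In proliferating cells it stood at 36.3, 37.5, 33.6 and 49.5 CPM at 21% O2 and 37.8, 36.8 and 41.2 CPM at 0.5% O2, with overlapping libraries (log2 fold change -0.03, adjusted p = 0.859). In chondrocyte cultures it fell from 49.5, 54.7, 61.3 and 54.5 CPM to 28.2, 22.0 and 22.2 CPM, a 2.30-fold fall (log2 -1.20, SE 0.11, adjusted p = 1.90e-05) with no overlap. That fall was among the 3.89% of tested genes with the lowest fold changes there. In osteoblast cultures it fell from 36.5, 35.1, 34.5 and 59.4 CPM to 25.7, 22.5 and 21.4 CPM (log2 -0.83, SE 0.20, adjusted p = 0.00754), and without the high replicate 4 by 0.60 on the log2 scale (adjusted p = 6.69e-05). The log2 fold change in smooth muscle cultures was -0.29 (adjusted p = 0.0893), and -1.66 (adjusted p = 6.28e-08) under library size scaling. The oxygen response of Nqo1 differed from that of proliferating cells in chondrocyte (interaction -1.16, adjusted p = 3.11e-05) and osteoblast cultures (-0.76, adjusted p = 0.0199, and -0.53 without normoxic osteoblast replicate 4).

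Gclc and Gclm encode the catalytic and the modifier subunit of glutamate-cysteine ligase, the first enzyme of glutathione synthesis, and they parted in hypoxic osteoblast cultures. Gclc was 41.3, 44.3, 39.8 and 52.5 CPM in normoxic and 167, 153 and 143 CPM in hypoxic osteoblast cultures, a 3.48-fold rise (log2 1.80, SE 0.11, adjusted p = 2.66e-06). The hypoxic libraries were at more than every other library of the series, and without normoxic replicate 4 the log2 fold change was 1.89. Gclm was 62.7, 65.9, 62.8 and 62.6 CPM and then 55.5, 44.2 and 47.2 CPM, a fall of 1.29-fold (log2 -0.37, SE 0.09, adjusted p = 0.00858) with no overlap.

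In proliferating cells both subunits fell with low oxygen by similar sizes, Gclc from 56.1 ± 1.92 to 42.3 ± 1.67 CPM (log2 -0.41, adjusted p = 1.64e-05) and Gclm from 86.5 ± 3.61 to 65.8 ± 2.93 CPM (log2 -0.40, adjusted p = 1.21e-05). In chondrocyte cultures Gclc went from 57.7 ± 3.12 to 49.0 ± 4.89 CPM (log2 -0.25, adjusted p = 0.0438), a call lost in 6 of the 7 fits that left out a library (adjusted p up to 0.180), and Gclm was 53.5 ± 6.09 and 55.0 ± 1.51 CPM with no call. Gclm in smooth muscle cultures was 42.8 ± 1.15 and 31.2 ± 8.64 CPM (log2 -0.32, adjusted p = 0.0512), and -1.70 (adjusted p = 3.15e-08) under library size scaling. Gclc in smooth muscle cultures was 14.4, 15.1, 15.6 and 13.7 CPM at 21% O2 and 29.3, 26.4 and 24.2 CPM at 0.5% O2 (log2 1.00, SE 0.12, adjusted p = 2.28e-06), turning to -0.37 under library size scaling. The Gclc response differed from that of proliferating cells in osteoblast cultures (interaction 2.25, SE 0.13, adjusted p = 1.91e-09) and in smooth muscle cultures (1.45, SE 0.12, adjusted p = 3.18e-10, and 0.12 with adjusted p = 0.391 under library size scaling). For Gclm it differed in chondrocyte cultures (0.44, SE 0.10, adjusted p = 0.00148).

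Srxn1 encodes sulfiredoxin, which repairs over-oxidised peroxiredoxins, and it was the member called lower with low oxygen in all 4 culture types. It fell in proliferating cells from 98.0, 110.3, 107 and 123 CPM to 90.8, 93.3 and 95.1 CPM (log2 -0.24, SE 0.07, adjusted p = 0.00517). In chondrocyte cultures it fell from 55.5, 53.2, 45.7 and 45.0 CPM to 35.2, 37.2 and 38.3 CPM (log2 -0.45, SE 0.09, adjusted p = 0.00455). In osteoblast cultures it fell from 46.8, 45.0, 44.5 and 44.2 CPM to 22.4, 17.4 and 16.8 CPM, a 2.38-fold fall (log2 -1.25, SE 0.11, adjusted p = 2.41e-05). The ranges did not overlap in any of these 3 comparisons, nor in smooth muscle cultures, where 33.4, 28.9, 34.8 and 31.2 CPM stood against 13.2, 21.8 and 14.2 CPM (log2 -0.84, SE 0.16, adjusted p = 0.000228, and -2.21 under library size scaling). The fall was larger than in proliferating cells in osteoblast (interaction -0.97, adjusted p = 1.40e-05) and smooth muscle cultures (-0.56, adjusted p = 0.00491, and -1.90 under library size scaling).

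Txnrd1 encodes the cytosolic thioredoxin reductase, a selenoprotein. With low oxygen it fell in proliferating cells from 304 ± 14.0 to 205 ± 8.28 CPM (log2 -0.57, SE 0.05, adjusted p = 2.01e-07) and in osteoblast cultures from 73.9 ± 4.52 to 48.2 ± 4.93 CPM (log2 -0.61, SE 0.10, adjusted p = 0.000619), both without overlap. In chondrocyte cultures the 4 normoxic libraries were at 228, 168, 165 and 156 CPM and the 3 hypoxic ones at 133, 149 and 136 CPM (log2 -0.38, adjusted p = 0.0541). Normoxic replicate 1 was the high library, and without it the log2 fold change was -0.25 (adjusted p = 0.0265). In smooth muscle cultures the libraries overlapped (log2 -0.16, adjusted p = 0.233), and the value under library size scaling was -1.53 (adjusted p = 1.02e-08).

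G6pdx, the first enzyme of the pentose phosphate pathway and a source of NADPH, went up in proliferating and down in chondrocyte cultures. In proliferating cells it was 133, 137, 136 and 163 CPM at 21% O2 and 169, 163 and 167 CPM at 0.5% O2 (log2 0.22, SE 0.07, adjusted p = 0.0102), the ranges touching through normoxic replicate 4. The call was lost under library size scaling (adjusted p = 0.0799) and in a fit of all 28 libraries (adjusted p = 0.440). In chondrocyte cultures it fell from 40.9 ± 1.13 to 32.2 ± 1.03 CPM (log2 -0.36, SE 0.07, adjusted p = 0.00392, and 0.153 in the fit of all 28 libraries). In osteoblast cultures 40.9, 40.4, 39.3 and 74.4 CPM stood against 35.4, 30.8 and 26.3 CPM (log2 -0.66, adjusted p = 0.0501), and without replicate 4, the high library, the log2 fold change was -0.38 (adjusted p = 0.00561). In smooth muscle cultures the log2 fold change of G6pdx was -0.14 (adjusted p = 0.364) with overlapping libraries, and -1.52 (adjusted p = 7.13e-08) under library size scaling. The response differed from that of proliferating cells in chondrocyte (interaction -0.57, adjusted p = 7.31e-05, and 0.0875 in the fit of all 28 libraries) and osteoblast cultures (-0.83, adjusted p = 0.0206, and -0.54 without normoxic osteoblast replicate 4). The osteoblast term of G6pdx was not called without a filter on low counts (adjusted p = 0.0588). Without hypoxic osteoblast replicate 3 the osteoblast interaction was not called for G6pdx (adjusted p = 0.0614), Nqo1 (0.0566) or Nfe2l2 (0.0643).

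**Figure D2:**
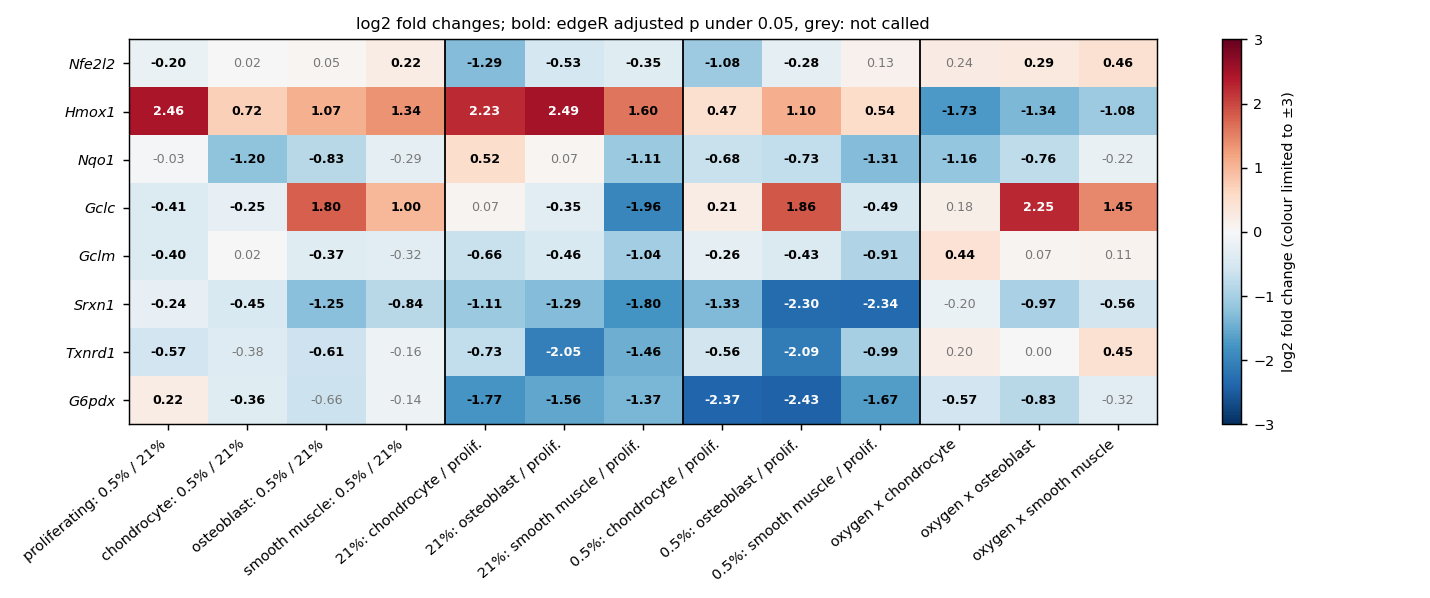
log2 fold change of each member in the 10 pairwise comparisons and the 3 interaction terms. An interaction term is the oxygen response in chondrocyte, osteoblast or smooth muscle cultures minus that in proliferating cells. Bold values were called at an edgeR adjusted p under 0.05, and grey values were not called. Under TMM scaling Hmox1 is positive in all 10 pairwise columns (0.47 to 2.49; under library size scaling -0.03 and -0.73 in the 2 columns of hypoxic smooth muscle cultures), and Srxn1 is negative in all 10 (-0.24 to -2.34).

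Differentiation at 21% O2 lowered most members and raised Hmox1. Against proliferating cells, 7 of 8 members were called in chondrocyte cultures, 2 of them higher, where 74.9% of all genes were called (37.7% higher, 37.2% lower). In osteoblast cultures 7 were called, 1 of them higher, beside 78.7% of all genes (40.9% higher, 37.8% lower). All 8 were called in smooth muscle cultures, 1 of them higher, beside 79.7% (40.8% higher, 38.9% lower). The libraries did not overlap for 6, 7 and 8 members, beside 70.1%, 74.6% and 74.9% of all genes. The median member log2 fold change was -0.70, -0.49 and -1.24, and the median of all genes was -0.00, 0.07 and 0.03. These 3 comparisons share the 4 proliferating libraries, so their values stand side by side and are not independent.

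Hmox1 rose 4.70-fold in chondrocyte (log2 2.23, SE 0.09, adjusted p = 3.97e-10), 5.61-fold in osteoblast (log2 2.49, SE 0.15, adjusted p = 2.85e-07) and 3.04-fold in smooth muscle cultures (log2 1.60, SE 0.09, adjusted p = 1.43e-10). No library of the 3 differentiated groups, whose lowest was 54.1 CPM, reached down to the 23.4 CPM of the highest proliferating one. The other member that rose was Nqo1 in chondrocyte cultures (log2 0.52, SE 0.11, adjusted p = 0.00135), where the ranges touched at 49.5 CPM and the value under library size scaling was 0.17 (adjusted p = 0.195).

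Srxn1, Txnrd1, Gclm, G6pdx and Nfe2l2 fell in all 3 normoxic differentiated groups, with no overlap with the proliferating libraries. Srxn1 fell by 1.11, 1.29 and 1.80 on the log2 scale in chondrocyte, osteoblast and smooth muscle cultures, and Txnrd1 by 0.73, 2.05 and 1.46. Txnrd1 was 304 ± 14.0 CPM in proliferating and 73.9 ± 4.52 CPM in osteoblast cultures, a 4.14-fold fall (SE 0.07 on the log2 scale, adjusted p = 5.42e-09). G6pdx fell by 1.77, 1.56 and 1.37, the osteoblast value being -1.88 without normoxic osteoblast replicate 4. The factor gene Nfe2l2 fell most in chondrocyte cultures, from 138 ± 13.7 to 55.1 ± 3.64 CPM (log2 -1.29, SE 0.08, adjusted p = 1.66e-08), and by 0.53 and 0.35 in osteoblast and smooth muscle cultures. The chondrocyte group, in which Nqo1 rose, was thus the normoxic group with the lowest Nfe2l2 transcript level.

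The glutathione pair did not follow 1 pattern. Gclm fell by 0.66, 0.46 and 1.04 on the log2 scale. Gclc was not called in chondrocyte cultures (log2 0.07, adjusted p = 0.281, but -0.28 with adjusted p = 0.000798 under library size scaling). Gclc fell by 0.35 in osteoblast cultures, the log2 fold change being -0.48 without normoxic osteoblast replicate 4. It fell 3.89-fold in smooth muscle cultures, from 56.3, 58.7, 54.5 and 54.8 CPM to 14.4, 15.1, 15.6 and 13.7 CPM (log2 -1.96, SE 0.07, adjusted p = 4.26e-13). That was the largest fall of a member in smooth muscle cultures, where Nqo1 also fell by 1.11 (adjusted p = 9.35e-07).

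At 0.5% O2 the comparison with proliferating cells gave larger falls of Srxn1 and G6pdx and smaller rises of Hmox1. The hypoxic smooth muscle cultures are named by their medium, as their smooth muscle markers were near the level of normoxic proliferating cells. Against hypoxic proliferating cells, 8 members were called in chondrocyte cultures, 2 of them higher, beside 69.5% of all genes (34.9% higher, 34.6% lower). In osteoblast cultures 8 were called, again 2 higher, beside 71.3% (36.2% higher, 35.1% lower), and in smooth muscle cultures 7, 1 of them higher, beside 70% (33.8% higher, 36.2% lower). The libraries did not overlap for 7, 8 and 7 members, beside 73.8%, 74.7% and 75.6% of all genes. The median member log2 fold change was -0.62, -0.58 and -0.95, and that of all genes -0.02, 0.00 and -0.07. The tests of these differences are the interaction terms: the term for Srxn1 was called in osteoblast and smooth muscle cultures, that for G6pdx in chondrocyte and osteoblast cultures, and that for Hmox1 in all 3. Hmox1 rose by 0.47, 1.10 and 0.54 on the log2 scale (adjusted p = 0.00522, 2.29e-09 and 0.000114), the first falling to 0.14 (adjusted p = 0.270) and the third turning to -0.73 under library size scaling. Srxn1 fell by 1.33, 2.30 and 2.34, reaching 18.9 ± 3.10 CPM in osteoblast cultures from 93.0 ± 2.15 CPM.

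G6pdx fell by 2.37, 2.43 and 1.67 on the log2 scale at 0.5% O2, from 166 ± 3.07 CPM in proliferating cells to 32.2 ± 1.03, 30.8 ± 4.53 and 46.5 ± 10.6 CPM. Nqo1 fell in hypoxic chondrocyte, osteoblast and smooth muscle cultures (by 0.68, 0.73 and 1.31), whereas at 21% O2 it fell only in the smooth muscle group. Gclc rose 3.64-fold in osteoblast cultures (log2 1.86, SE 0.08, adjusted p = 9.50e-12), rose by 0.21 in chondrocyte cultures (adjusted p = 0.0318, but -0.12 under library size scaling) and fell by 0.49 in smooth muscle cultures. The chondrocyte call for Gclc was lost without hypoxic proliferating replicate 1 (adjusted p = 0.113) or 2 (0.114) or hypoxic chondrocyte replicate 3 (0.121). Gclm fell by 0.26 (adjusted p = 0.0556 in the fit of all 28 libraries), 0.43 and 0.91, Txnrd1 by 0.56, 2.09 and 0.99, and Nfe2l2 by 1.08 and 0.28 in chondrocyte and osteoblast cultures. In smooth muscle cultures the log2 fold change of Nfe2l2 was positive at 0.13 and not called (adjusted p = 0.253), and it was -1.15 (adjusted p = 1.42e-06) under library size scaling. The smooth muscle values of the members that fell there under TMM also moved under library size scaling. They were Gclc -1.76, Gclm -2.19, Txnrd1 -2.27, Nqo1 -2.58, G6pdx -2.95 and Srxn1 -3.62, where the median of all genes was -1.35.

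In the hypoxic smooth muscle group the scaling decides the sign of several members. TMM factors there were 0.518 to 0.545, against 0.896 to 1.26 in the other 25 libraries. Scaling by library size alone moved the median of all genes in the comparison with normoxic smooth muscle cultures from -0.12 to -1.49, and the called members from 3 higher and 1 lower to 0 higher and 7 lower. In the other comparisons the median of all genes under library size scaling was -1.35 for hypoxic smooth muscle against hypoxic proliferating cultures, -1.37 for the smooth muscle interaction, and between -0.35 (both chondrocyte groups against proliferating cells) and 0.11 elsewhere. Among all genes called between hypoxic and normoxic smooth muscle cultures, the share higher was 46.8% with TMM and 15.6% with library size. Positions relative to the shifted median of all genes in that comparison, under library size scaling, were as follows. Hmox1 stood at 1.46, Gclc at 1.12, Nfe2l2 at 0.34, G6pdx at -0.03, Txnrd1 at -0.04, Nqo1 at -0.17, Gclm at -0.21 and Srxn1 at -0.72. In the same comparison under TMM scaling, leaving out hypoxic smooth muscle replicate 2 called 7 members (3 higher, 4 lower). This added Nqo1 (log2 -0.39), Gclm (-0.58) and Txnrd1 (-0.31) as lower. In these bulk libraries, fewer cells that express a gene and less RNA per cell cannot be told apart.

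**Figure D3:**
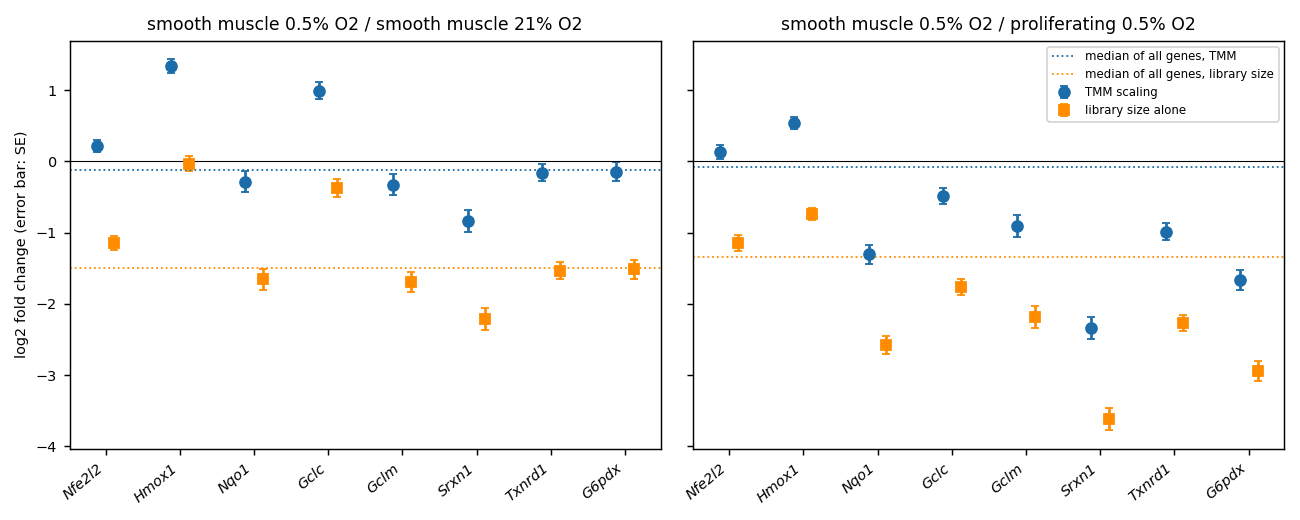
log2 fold change with its SE for each member in hypoxic smooth muscle cultures against normoxic smooth muscle cultures (left) and hypoxic proliferating cells (right), under TMM scaling (blue circles) and library size alone (orange squares), with dotted lines at the median of all genes. The left panel shows Hmox1 moving from 1.34 to -0.03 and Gclc from 1.00 to -0.37 while both keep their place above the dotted line of the same colour.

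Ratios of 2 genes within a library do not depend on scaling, and they were examined after the levels had been seen. The log2 ratio of Hmox1 to Nqo1 counts was -0.88 ± 0.16 (SD, n = 4) in normoxic and 1.59 ± 0.03 (SD, n = 3) in hypoxic proliferating cells, 0.82 ± 0.17 and 2.73 ± 0.08 in chondrocyte, 1.54 ± 0.71 and 3.43 ± 0.23 in osteoblast, and 1.81 ± 0.34 and 3.45 ± 0.14 in smooth muscle cultures. In each culture type all hypoxic libraries lay above all normoxic ones. Normoxic osteoblast replicate 4 was at 0.48, and its 3 partners were at 1.80, 1.97 and 1.91. The log2 ratio of Gclc to Gclm was -0.62 ± 0.02 in normoxic and -0.64 ± 0.05 in hypoxic proliferating cells. It was 0.11 ± 0.17 in normoxic and -0.17 ± 0.11 in hypoxic chondrocyte cultures. The values were -0.52 ± 0.18 and 1.66 ± 0.11 in osteoblast, and -1.54 ± 0.07 and -0.19 ± 0.37 in smooth muscle cultures, without overlap in either of these.

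**Figure D4:**
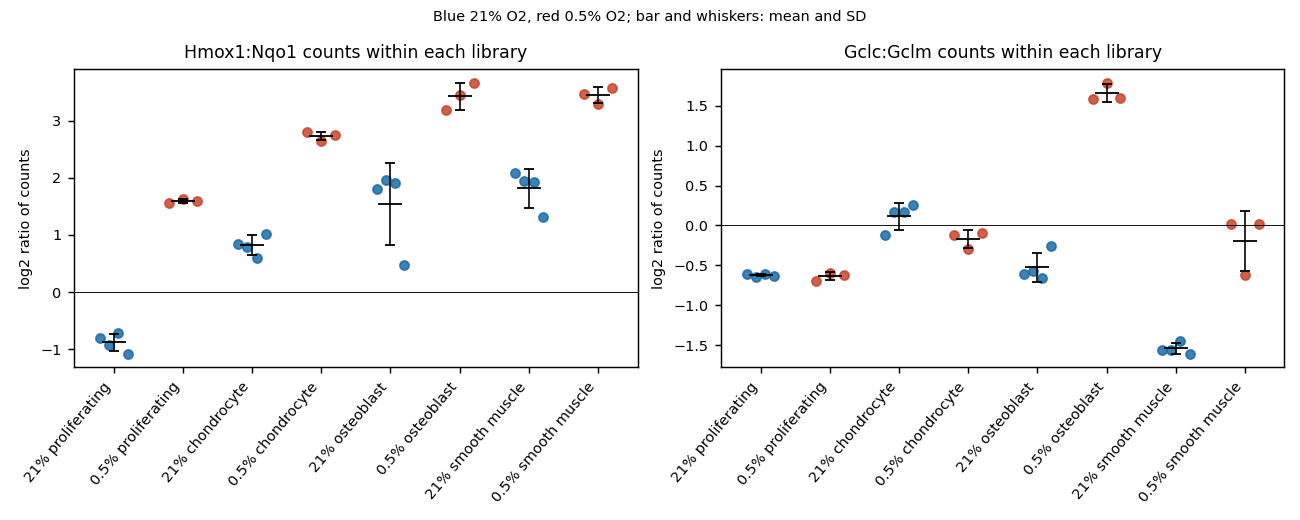
log2 ratio of counts of Hmox1 to Nqo1 (left) and of Gclc to Gclm (right) in every library, with blue points for 21% O2, red points for 0.5% O2, and the mean and SD as bar and whiskers. The left ratio is higher at 0.5% O2 in each culture type, and the right ratio stands out in hypoxic osteoblast cultures (1.58 to 1.79).

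All 9 listed regulators of the pathway were tested, and Maff rose with low oxygen in each culture type. Maff, which encodes a small MAF partner, rose with low oxygen from 30.5 ± 0.54 to 115 ± 3.91 CPM in proliferating cells (log2 1.91, SE 0.05, adjusted p = 1.52e-12) and by 1.34 in chondrocyte cultures (adjusted p = 0.00946). In osteoblast cultures it rose from 12.5 ± 3.9 to 164 ± 32.3 CPM (log2 3.72, SE 0.27, adjusted p = 1.71e-05), and in smooth muscle cultures by 5.29. The regulators called with low oxygen were 4 higher and 3 lower in proliferating cells, 5 and 0 in chondrocyte, 2 and 2 in osteoblast, and 5 and 4 in smooth muscle cultures, with medians of 0.05, 0.19, 0.10 and 0.36. Of all genes, 33.1% and 32.3%, 10.4% and 11.8%, 27% and 27.3%, and 35.4% and 40.2% were higher and lower in these comparisons. Keap1, the adaptor that marks NRF2 for degradation, had log2 fold changes between -0.67 and 0.27 in the 10 pairwise comparisons. With normoxic differentiation 3 regulators were higher and 3 lower in chondrocyte, 4 and 1 in osteoblast, and 3 and 6 in smooth muscle cultures, beside 37.7% and 37.2%, 40.9% and 37.8%, and 40.8% and 38.9% of all genes. Nfe2l1, which encodes the related factor NRF1, rose by 1.93 in chondrocyte and 2.07 in osteoblast cultures. Maff fell by 2.02 in normoxic smooth muscle cultures against proliferating cells.

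Of 29 further NRF2 targets that were listed, 27 were tested, and Gsta3 and Aldh3a1 were not because of low counts. With low oxygen 10 were higher and 7 lower in proliferating cells, 6 and 3 in chondrocyte, 11 and 8 in osteoblast, and 19 and 5 in smooth muscle cultures, with median log2 fold changes of 0.05, -0.01, -0.01 and 1.09. These 27 genes are to be read against the same shares of all genes higher and lower as the regulators. The last of these is in the group whose values shift with the scaling. With differentiation at 21% O2 the counts were 5 higher and 15 lower in chondrocyte, 8 and 16 in osteoblast, and 6 and 18 in smooth muscle cultures, with medians of -0.37, -0.68 and -0.77, against the shares of all genes given above for these comparisons. At 0.5% O2 they were 5 and 15, 5 and 17, and 14 and 9, with medians of -0.40, -0.76 and 0.25, beside 34.9% and 34.6%, 36.2% and 35.1%, and 33.8% and 36.2% of all genes.

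Among glutathione genes, Slc7a11, which encodes the cystine transporter of system xc-, moved over a wide range. It was 34.5 ± 14.7 CPM in normoxic proliferating cells and 1.10 ± 0.12 and 0.73 ± 0.34 CPM in normoxic osteoblast and smooth muscle cultures, log2 fold changes of -4.96 (SE 0.31, adjusted p = 3.67e-07) and -5.57 (SE 0.42, adjusted p = 3.94e-06). With low oxygen it rose to 13.9 ± 3.33 CPM in osteoblast cultures (log2 3.65, SE 0.20, adjusted p = 1.23e-06) and by 3.76 on the log2 scale in smooth muscle cultures. Against hypoxic proliferating cells, Slc7a11 fell by 2.40 in hypoxic smooth muscle cultures and Gsta4 by 2.27 in hypoxic osteoblast cultures. Gsta4 and Gstm1, glutathione transferases, fell by 4.86 and 3.18 in normoxic and by 5.17 and 4.24 in hypoxic chondrocyte cultures against proliferating cells at the same oxygen level, where Gstm1 belongs to a family of near-identical genes and is uncertain. Gsr, glutathione reductase, fell with low oxygen in proliferating cells (log2 -0.70, adjusted p = 4.01e-08), and Abcc4, an exporter, was not called between hypoxic and normoxic chondrocyte cultures (log2 0.18, adjusted p = 0.173) but was higher in both than in proliferating cells at the same oxygen level (1.91 and 1.51).

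Among haem and iron genes, Slc40a1, which encodes the iron exporter ferroportin, rose from 0.17 CPM in normoxic proliferating cells to 20.7, 5.12 and 7.08 CPM in normoxic chondrocyte, osteoblast and smooth muscle cultures (log2 7.06, 4.98 and 5.45). With low oxygen it rose in proliferating cells (log2 2.83, adjusted p = 0.000508) and fell in osteoblast (log2 -2.89, adjusted p = 4.52e-05) and smooth muscle cultures (log2 -4.77). Blvrb, a biliverdin reductase, rose by 4.05 in hypoxic smooth muscle cultures and fell by 0.81 in hypoxic chondrocyte cultures against their normoxic groups. Against hypoxic proliferating cells, Slc40a1 rose by 4.16 in chondrocyte cultures and Blvrb by 2.56 in smooth muscle cultures. The ferritin genes rose against hypoxic proliferating cells, Fth1 in osteoblast cultures (log2 1.28) and Ftl1 in smooth muscle cultures (log2 2.19), both with known pseudogene copies and therefore uncertain.

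Among NADPH and detoxification genes, Me1, malic enzyme, rose with low oxygen in chondrocyte cultures (log2 0.64, adjusted p = 4.66e-05), while Idh1 fell by 3.17 in smooth muscle cultures, and by 2.51 there against hypoxic proliferating cells. Cbr3, a carbonyl reductase, fell with low oxygen in proliferating (log2 -0.92), chondrocyte (-0.67) and osteoblast cultures (-1.68). Against proliferating cells at the same oxygen level, Cbr1 rose by 1.42 in normoxic smooth muscle cultures, Esd fell by 2.36 in normoxic and 2.11 in hypoxic osteoblast cultures, and Prdx6, a peroxiredoxin, rose by 1.49 in the latter.

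**Figure D5:**
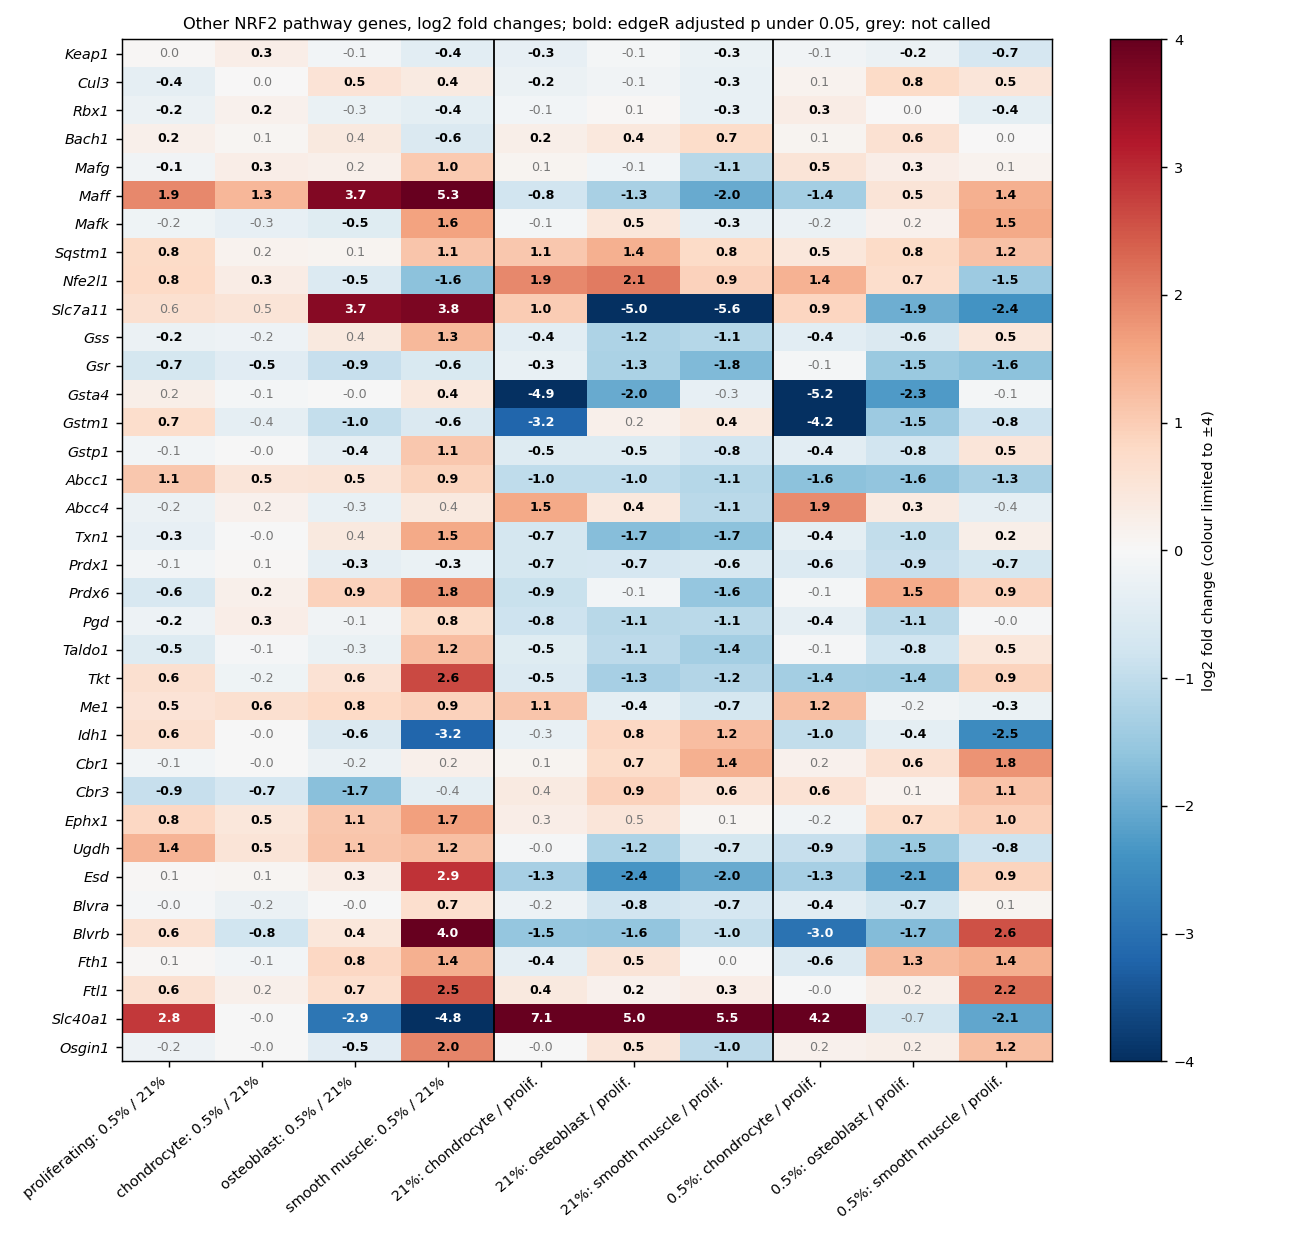
log2 fold changes of 9 regulators (top rows) and 27 further NRF2 targets in the 10 pairwise comparisons under TMM scaling, with bold values called at an edgeR adjusted p under 0.05 and grey values not called. Maff is positive in all 4 oxygen columns (1.34 to 5.29), and Slc7a11 is negative in normoxic osteoblast and smooth muscle cultures (-4.96 and -5.57) and positive in the oxygen columns of the same culture types (3.65 and 3.76).

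Macrophages are known for high Hmox1 expression, so their markers are given beside it. The summed level of 6 macrophage markers was 2.69 to 15.5 CPM outside the hypoxic smooth muscle group and 36.5 to 41.8 CPM within it, nearly all of it Cd68 (34.0 ± 2.15 CPM), with Adgre1 and Lyz2 at 0 there and Ptprc at 0.09 CPM. In osteoblast cultures the macrophage sum was 3.51 to 4.74 CPM at 21% O2 and 3.34 to 4.89 CPM at 0.5% O2. Hmox1 and Gclc were highest in the hypoxic osteoblast group. The sum of the low oxygen genes was 1879 to 2017 CPM in normoxic and 11707 to 12525 CPM in hypoxic proliferating cells, and its part in the Hmox1 result was not tested. In the normoxic chondrocyte, osteoblast and smooth muscle cultures the sum was 2220 to 3363, 1092 to 1254 and 656 to 693 CPM.

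Across the 8 group means under TMM scaling, the members fell into an uneven set. The hypoxic smooth muscle group, whose values depend on the scaling, is among these groups, and correlations under library size scaling were not computed. Pearson's r of mean log2 CPM, a description over 8 groups that share libraries within them, was 0.88 between Gclm and Srxn1, 0.83 between Srxn1 and Txnrd1 and 0.80 between Srxn1 and G6pdx. Hmox1 ran the other way from Gclm (-0.55), G6pdx (-0.66), Srxn1 (-0.69) and Txnrd1 (-0.75). Nfe2l2 had its highest value with G6pdx (0.65) and lay between -0.40 and 0.16 with the other members.

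Similar genes were sought among 8854 genes with a mean of at least 10 CPM, under TMM scaling alone. Those with the pattern most like Gclc over the 8 groups were Tead4 (r = 0.99), Sgk1 (0.94) and Spp1 (0.93). Tead4 went from 34.7 CPM in normoxic to 147 CPM in hypoxic osteoblast cultures. Dhrs7 (0.98), Mboat2 (0.97) and Amn1 (0.96) were most like Hmox1. Mdc1 (0.97) and Nprl3 (0.97) were among the 3 genes closest to Srxn1, and Traf3 (0.99), Nde1 (0.97) and Naa40 (0.97) to Txnrd1. For Nfe2l2 they were Kcnab1 (0.98), Gsta4 (0.97) and Vcam1 (0.97), for Gclm Top3a (0.97), Slc22a23 (0.96) and Nckap1 (0.94), for G6pdx Chic1 (0.97), Socs5 (0.97) and Fam171a1 (0.97), and for Nqo1 Adk (0.91), Nfic (0.88) and Bmper (0.88), the loosest match of the 8.

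The authors' deposited table gave log2 fold changes for the same 8 genes in the same 10 pairs, and all 80 had the sign found here. The largest difference from the authors' deposited table was 0.06 and the median difference 0.01 on the log2 scale.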

How the data were processed

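RNA of O9-1 cells was measured in 28 RNA sequencing libraries from a stranded kit, per the labels' protocols. The deposited table holds whole-number read counts per gene. Per the submitters' processing notes, HISAT2 2.0.5, StringTie 1.3.3b, featureCounts 1.5.0-p3 and mm10 were used, with their order, the annotation and the strand setting not given in the sources used here. A further 10 deposited tables hold, per the file headers, log2 fold changes and p-values of the authors for each pair of groups, and whether those p-values were adjusted is not given. Their 70 columns of normalised values were not used. Symbols came from a reference table that named 54314 of the 54429 identifiers.

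Counts were tested with edgeR 4.0.16 (R 4.3.3, robust quasi-likelihood, TMM trims of 30% and 5%, and filterByExpr with a minimum count of 10 and a minimum total of 15). Each pair was fitted on its own libraries and each interaction on its 4 groups, two-sided, with Benjamini-Hochberg adjustment over all genes tested. The code was tested on simulated data. No columns were identical, and same-numbered libraries were not treated as pairs, because their residuals correlated between -0.08 and 0.12. Alternatives were library size scaling, RLE factors, removal of mitochondrial genes, other filters, DESeq2 1.42.0, limma-voom 3.58.1, a fit of all libraries, a replicate block, leaving out each library and, chosen after seeing the data, replicates 1 to 3 only. In each pair, the 2 most raised and the 2 most lowered called genes of the listed pathway set are named, and Keap1 was added after its values were seen. For each member the 3 most similar genes by Pearson's r are named, except 1 that is not reported here. The members and lists were chosen with earlier results of these data known.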

Additional observations from a re-analysis of the deposited data

Results flagged for a closer look

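In 5 of the 32 sets of 4 normoxic libraries (8 members in 4 groups), 1 library lay far from the other 3 by Dixon's test, a rate to be read against the 1 in 20 that chance gives. These were Nqo1 at 59.4 CPM and G6pdx at 74.4 CPM in osteoblast replicate 4, Gclm at 65.9 CPM in osteoblast replicate 2, Txnrd1 at 228 CPM in chondrocyte replicate 1, and G6pdx at 163 CPM in proliferating replicate 4.

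The oxygen response of a member differed from that of proliferating cells in 15 interaction terms called by edgeR. In chondrocyte cultures the differences of log2 fold changes were -1.73 for Hmox1, -1.16 for Nqo1, 0.44 for Gclm and -0.57 for G6pdx. In osteoblast cultures they were 0.29 for Nfe2l2, -1.34 for Hmox1, -0.76 for Nqo1, 2.25 for Gclc, -0.97 for Srxn1 and -0.83 for G6pdx. In smooth muscle cultures they were 0.46 for Nfe2l2, -1.08 for Hmox1, 1.45 for Gclc, -0.56 for Srxn1 and 0.45 for Txnrd1. The Nfe2l2 and Txnrd1 terms in smooth muscle cultures turned negative under library size scaling, where the median of all genes was -1.37. The Nfe2l2 term in osteoblast cultures was not called under library size scaling (0.17, adjusted p = 0.204), without a filter (adjusted p = 0.0502), with at least 10 counts per library (0.0654), or without normoxic proliferating replicate 4, hypoxic proliferating replicate 1 or 2, or hypoxic osteoblast replicate 3.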

How the results depend on the processing

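The counts of called members stayed within 1.5 times the reported ones in all comparisons and alternatives except 3: hypoxic against normoxic smooth muscle cultures gave 7 in place of 4 under library size scaling and a range of 3 to 7 when 1 library was left out, and the osteoblast interaction gave 3 to 6 in place of 6, the 3 being without hypoxic osteoblast replicate 3. Library size scaling reversed 16 of 104 member values, RLE factors and the stricter filter (10 counts in each library) 1 each. In hypoxic against normoxic smooth muscle cultures it gave Nfe2l2 -1.15, Hmox1 -0.0325 and Gclc -0.37, against hypoxic proliferating cells Nfe2l2 -1.15 and Hmox1 -0.73, and in the smooth muscle interaction Nfe2l2 -0.87, Gclm -1.22 and Txnrd1 -0.89. The other values reversed under it were: in low oxygen Nfe2l2 (-0.0547) and Gclm (-0.054) in chondrocyte and Nfe2l2 (-0.11) in osteoblast cultures, Gclc in normoxic (-0.28, then called lower) and hypoxic chondrocyte cultures (-0.12, no longer called higher), Nqo1 (-0.0767) in normoxic osteoblast cultures, and Gclm (-0.0498) and Txnrd1 (-0.12) in the osteoblast interaction. The Txnrd1 osteoblast interaction, 0.00 as reported, was also -0.0166 with RLE factors, -0.0172 with DESeq2, -0.0578 with the stricter filter and -0.00388 with limma-voom. Nqo1 in low oxygen proliferating cells was 0.00119 with limma-voom, 0.0845 with replicates 1 to 3 only and 0.0831 with the replicate block. Nqo1 in normoxic osteoblast cultures was -0.0720 with replicates 1 to 3 only, and Gclc in normoxic chondrocyte cultures was -0.00432 in the fit of all libraries. The cause of these changes was not tested.

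With 1 library left out, signs turned only in values that were not called: Nqo1 in low oxygen proliferating cells (-0.0897 to 0.0845) and normoxic osteoblast cultures (-0.20 to 0.19), Nfe2l2 (-0.0170 to 0.0613) and Gclm (-0.0121 to 0.11) in low oxygen chondrocyte cultures, G6pdx in low oxygen smooth muscle cultures (-0.27 to 0.0277), Gclm in the osteoblast (-0.0195 to 0.15) and smooth muscle interactions (-0.13 to 0.26) and Txnrd1 in the osteoblast interaction (-0.0716 to 0.0766). The replicate block, over numbers the data did not pair, kept the direction and the call of 97 of 104 member values, and changed the call of Gclc (adjusted p = 0.105) and Txnrd1 (0.0494) in low oxygen chondrocyte, G6pdx (0.00216) in low oxygen osteoblast, Nfe2l2 (0.102) and Gclm (0.0355) in low oxygen smooth muscle cultures and Srxn1 (0.0207) in the chondrocyte interaction. Replicates 1 to 3 only called 3 members in low oxygen smooth muscle cultures and 7 in osteoblast cultures. In the fit of all 28 libraries the G6pdx calls in low oxygen proliferating (adjusted p = 0.440) and chondrocyte cultures (0.153) were lost. Whether depth or the number of libraries limits the precision more was not tested.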

Other observations

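Nqo1 and G6pdx were highest in replicate 4 in 3 of the 4 normoxic groups: proliferating (49.5 and 163 CPM), osteoblast (59.4 and 74.4 CPM) and smooth muscle cultures (21.8 and 63.8 CPM), but not in chondrocyte cultures, where replicate 3 (61.3 CPM) and replicate 2 (42.3 CPM) led. Hmox1 was lowest in replicate 4 in the osteoblast and smooth muscle groups (82.7 and 54.1 CPM) and highest in replicate 4 in the proliferating and chondrocyte groups (23.4 and 111 CPM). No hypoxic group has a replicate 4, and this was noticed after the values were seen.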
